A study of Glycine max with 4 samples.

Results

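Wide solitary outer regions are places toward the ends of the soybean chromosomes with a broad region of ChIP signal. The signal is that of the transcription factor GLYMA.08G357600, tied to ABI3 by the submitters' file naming. No other region was called nearby under the same Chr name. Regions under other names, which include the Gm names described below, were not searched for neighbours. The wide solitary outer regions were selected on values of the replicate 2 peak list. On a chromosome with a Chr name, the summit was within 20% of the length from an end, no other summit of that list lay within 30 kb on the same chromosome, and the region was at least 360 bp wide. Of the 1436 regions with Chr names in replicate 2, 1000 lay in the outer parts, 761 of those were solitary, and 237 of those were wide. The other 524 solitary outer regions, all under 360 bp, are called narrow below and serve as the comparison. Replicate 2 listed 2460 regions in all and replicate 1 listed 939.

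All samples came from 1 group: embryos of Glycine max cultivar Williams 82 at mid-maturation, dissected from seeds of 200 to 250 mg. The plants grew in a greenhouse, and the labels name no transgene or treatment. Chromatin was fixed in 1% formaldehyde, sheared to 100 to 500 bp and precipitated with an antibody against a peptide of GLYMA.08G357600, and libraries were amplified with 15 PCR cycles. The design has 2 biological replicates with 2 technical replicates each, and 1 peak list was used for each biological replicate. The labels do not state whether a list was called on 1 or both technical replicates, so the summit counts may come from either. The embryos were used whole, so the cell types in which binding took place cannot be told apart. The input controls and a sample lacking the factor were not analysed here.

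ABI3 is a plant transcription factor with a B3 domain, which binds RY elements in DNA. In Arabidopsis it acts with LEC1, LEC2 and FUS3 in the seed maturation programme, in which storage proteins and oil accumulate and the embryo becomes tolerant of drying. In a peak list, the width of a region is the length over which signal stayed past the threshold of the peak caller. A region can therefore be wide because its summit is tall, because signal is spread out, or because neighbouring summits were joined. The sources used here do not name the build of these positions, so no genes were placed beside the regions and no sequence was read.

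Wide solitary outer regions were also the stronger ones in replicate 2. Their width ran from 360 to 787 bp with a median of 427 bp, against 220 to 359 bp with a median of 273 bp for the narrow regions. Fold enrichment, which the authors give for each summit, had a median of 8.69 in the wide regions (range 1.72 to 29.97) and 5.58 in the narrow ones (1.48 to 11.67). The median summit held 44 fragments in wide regions and 26 in narrow regions. The median −log10 q-value was 25.4 and 10.02. Width and fold moved together within the wide set, with a Spearman rho of 0.41 over 237 regions. These values come from the list that chose the regions, so they describe the set and were not tested. Together the wide regions covered 106 kb and the narrow ones 146 kb.

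**Figure D1:**
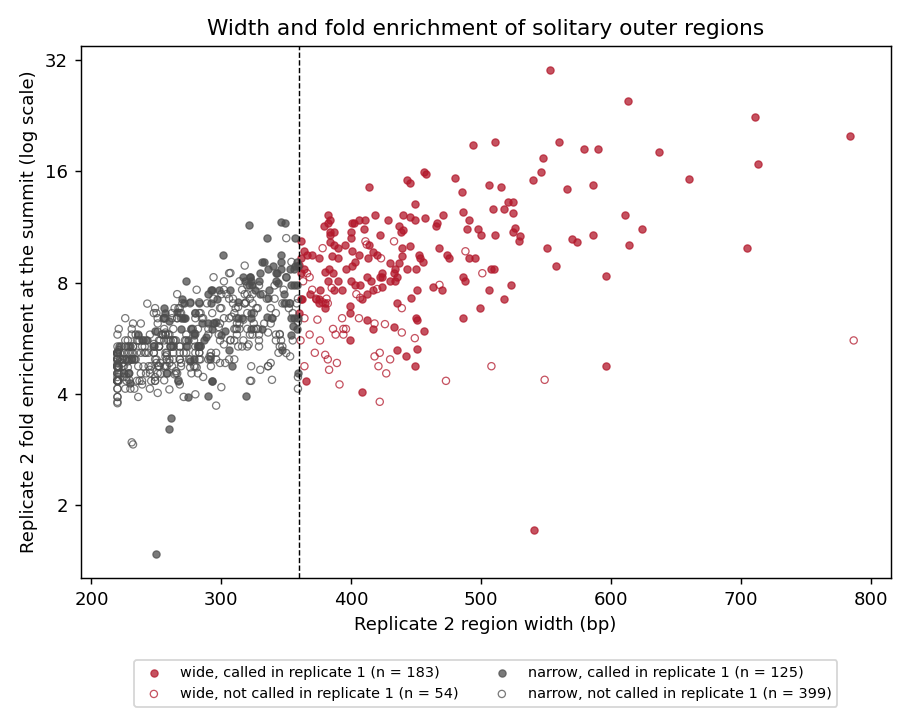
Each point is 1 solitary outer region of replicate 2, with its width in bp on the x axis and its fold enrichment at the summit on a log y axis; filled points were also called in replicate 1, open points were not, and the dashed line marks 360 bp. Filled points dominate among the wide regions (183 of 237) and open points among the narrow ones (399 of 524).

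The leading wide regions reached high enrichment in both replicates. Chr chromosome 10, 42601298 to 42601850, was enriched 29.97-fold in replicate 2, where 144 fragments covered the summit (95% Poisson interval 121 to 169.5), and 19.6-fold in replicate 1 with 91 fragments (73.3 to 112). This was the highest fold among the wide solitary outer regions in each list. Chr chromosome 20, 43441409 to 43442021, reached 24.7-fold in replicate 2 and 16.8-fold in replicate 1. Chr chromosome 9, 5709411 to 5710121, was both wide and tall in each list. It spanned 711 bp with a fold of 22.3 in replicate 2, and 710 bp with a fold of 13.8 in replicate 1. Chr chromosome 16, 30433605 to 30434164, had folds of 19.1 in replicate 2 and 14.4 in replicate 1, and its summits lay 4 bp apart. The pair at Chr chromosome 9, 47197339 to 47197917, and Chr chromosome 15, 6424621 to 6425210, also led in replicate 1, with folds of 18.3 and 18.4 in replicate 2 and of 14.5 and 13.2 in replicate 1. Chr chromosome 17, 6670853 to 6671363, had a larger gap between the lists, at 19.2-fold in replicate 2 and 9.80-fold in replicate 1. Wide solitary outer regions, 237 of the 1436 Chr regions, made up 44 of the 100 highest −log10 q-values among the Chr names of replicate 2. That ranking uses values of the list that chose them, and it is a description only.

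Great width did not always go with great height. The 787 bp region at Chr chromosome 10, 49418798 to 49419584, was the widest of all, yet its fold was 5.58 from 26 summit fragments in replicate 2, below the median of the set. Its summit lay at base 636 of the region, and replicate 1 did not call it. The next in width, 784 bp at Chr chromosome 11, 34414240 to 34415023, had a fold of 19.8 in replicate 2. In replicate 1 the same place was 404 bp wide with a fold of 11.7. Chr chromosome 19, 47905819 to 47906531, was 713 bp wide with 80 summit fragments in replicate 2 and 578 bp wide with 36 in replicate 1. Chr chromosome 17, 5445205 to 5445909, was 705 bp wide with a fold of 9.92 in replicate 2, and 456 bp wide with a fold of 5.54 in replicate 1. Chr chromosome 8, 525652 to 526311, was 660 bp wide with a fold of 15.2 in replicate 2, and 467 bp wide with a fold of 9.72 in replicate 1. Among these 6 widest regions, 5 were called in both replicates and the weakest was called in 1.

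Regions lay right at the width limit on both of its sides. The 2 regions of exactly 360 bp, at 6405374 on Chr chromosome 2 and at 6593488 on Chr chromosome 10, had folds of 6.62 and 8.89 in replicate 2, and replicate 1 called both. Just below the limit, 7 regions of 359 bp had folds of 4.13 to 8.89, and replicate 1 called 3 of them.

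Most wide solitary outer regions were also called in replicate 1, whose list was not used to choose them by width or solitude. A region of replicate 1 overlapped 183 of the 237 wide regions by at least 1 bp (77.2%, exact 95% binomial interval 71.3 to 82.4%). The same was true of 125 of the 524 narrow regions (23.9%, 20.3 to 27.7%). Over all 1436 regions with Chr names, 42.3% were called in replicate 1. The difference between the wide and narrow shares was 53.4 percentage points (46.3 to 59.7 from the combined exact intervals). The wide share was higher on 20 of 20 chromosomes. It ran from 61.5% on chromosome 18 to 100% on chromosome 16, where all 8 were called. Intervals treat regions as units and cover counting error only; with 1 list per replicate no test over replicates was run.

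The share called in replicate 1 climbed through the width classes. It was 8.46% of the 201 regions of 220 to 259 bp, 28.0% of 175 at 260 to 309 bp and 39.9% of 148 at 310 to 359 bp. Above the limit it was 61.1% of 72 regions at 360 to 399 bp, 75.9% of 79 at 400 to 449 bp, 91.7% of 36 at 450 to 499 bp and 92.0% of 50 at 500 bp or more. Median fold in replicate 2 rose over the same classes, from 4.96 in the narrowest to 11.2 in the widest, so strength moved with width.

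At like strength the gap between wide and narrow regions was smaller. All 761 solitary outer regions were divided into 4 classes by the quartiles of replicate 2 −log10 q. In the strongest class, replicate 1 called 138 of 148 wide regions (93.2%, 87.9 to 96.7%) and 26 of 33 narrow ones (78.8%, 61.1 to 91.02%). In the next class it called 36 of 52 wide (69.2%, 54.9 to 81.3%) and 52 of 136 narrow (38.2%, 30.04 to 46.95%). In the second weakest class the counts were 5 of 18 wide (27.8%, 9.69 to 53.5%) and 29 of 152 narrow (19.1%, 13.2 to 26.2%). In the weakest class they were 4 of 19 wide (21.1%, 6.05 to 45.6%) and 18 of 203 narrow (8.87%, 5.34 to 13.7%). The wide share was the higher in each class, and the intervals of wide and narrow overlapped in 3 of the 4. The mean difference over the classes was 16.6 percentage points (8.35 to 27.3). Strength was not fully evened out, since the median −log10 q in the strongest class was 33.0 for wide and 24.8 for narrow regions. In the class below it, where the gap was largest, the medians were 17.3 and 15.7. The part of remaining strength in this difference was not tested beyond the finer classes given with the alternatives. With the lists exchanged, so that replicate 1 chose the regions, replicate 2 called 98.02% of 101 wide and 93.5% of the narrow regions, and the mean difference over classes was −1.13 points (−14.0 to 5.71). Replicate 2 called nearly all regions of both sets, so a gap of the size seen in the other direction had no room to appear and the exchange is no check of it.

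**Figure D2:**
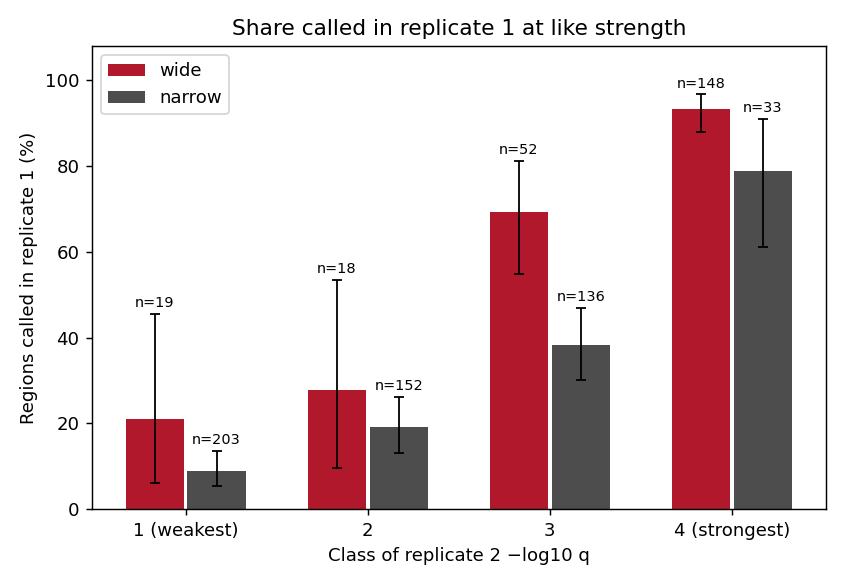
The bars show the percentage of wide and narrow solitary outer regions of replicate 2 that replicate 1 called, within 4 classes of replicate 2 −log10 q; error bars are exact 95% binomial intervals and n is the number of regions. The share was 21.1% of wide and 8.87% of narrow regions in the weakest class, and 93.2% and 78.8% in the strongest.

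The wide regions that replicate 1 called were the stronger part of the set, but strong exceptions existed. The 183 called ones had a median fold of 9.51 and 47 summit fragments in replicate 2, and the 54 others 6.09 and 29.5. The strongest wide regions without a call in replicate 1 held 48 or 49 summit fragments in replicate 2. They were Chr chromosome 5, 1313111 to 1313543, and Chr chromosome 4, 4416930 to 4417340, each with a fold of 10.3, Chr chromosome 5, 38808350 to 38808761, with 10.1, and Chr chromosome 18, 304141 to 304518, with 9.91. Conversely, all of the 3 strongest narrow regions were called in replicate 1. Of these, Chr chromosome 8, 5507973 to 5508293, was 321 bp wide with a fold of 11.4 in replicate 2, and 351 bp wide with 8.74 in replicate 1. Chr chromosome 9, 47114981 to 47115326, had folds of 11.7 in replicate 2 and 7.03 in replicate 1, and Chr chromosome 6, 2205703 to 2206051, had 11.6 and 7.61.

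Where replicate 1 called a wide region, its own region there had a higher median width and fold than at narrow places, before strength was taken into account. The replicate 1 width had a median of 341 bp at the 183 wide places (quartiles 274.5 and 395 bp) and of 263 bp at the 125 narrow places (241 and 301 bp), a difference of 78 bp (52.8 to 97.3 bp from intervals of the medians). Replicate 1 fold had a median of 7.03 at wide places (quartiles 5.75 and 8.58) and 5.75 at narrow places (5.14 and 6.18), a difference of 1.28 (0.67 to 1.75). By −log10 q the wide places stood at a median percentile of 70.3 of the replicate 1 list, and the narrow ones at 40.6. The quartile ranges overlapped in width and in fold. Within the 4 strength classes most of the gap lay in the strongest, where the median replicate 1 width was 359 bp at wide and 266 bp at narrow places and the median fold 7.67 and 6.07. In the class below it the widths were 289 and 276.5 bp, and the fold was lower at wide places, 5.75 against 5.96. In the weaker 2 classes the widths were 264 and 264.5 bp at wide places (5 and 4 called) and 252 and 237 bp at narrow places (29 and 18 called). These medians cover only the places that passed the threshold in replicate 1. The intervals of the medians treat regions as units and do not measure the spread between biological replicates.

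Width itself was kept by fewer than the call was. In replicate 1, 77 of the 183 wide places were at least 360 bp wide (42.1%, 34.8 to 49.6%), against 10 of 125 narrow places (8.00%, 3.90 to 14.2%) and 28.3% over all regions with Chr names called in both lists. The 77 had a median fold of 11.2 in replicate 2 and 8.74 in replicate 1, and the other 106 a median of 8.68 in replicate 2 and 6.11 in replicate 1. Of the 183, 171 were wider in replicate 2 than in replicate 1, with a median ratio of 1.34. Since the width limit was set on replicate 2, a smaller width in replicate 1 can follow in part from the choice. That part was not tested, and the smaller width is not read as a difference between replicates. Smaller widths were not limited to the wide set. Where called, narrow regions of 310 to 359 bp and 260 to 309 bp in replicate 2 had median replicate 1 widths of 286 and 254 bp. Those of 220 to 259 bp had a median of 243 bp. Across the 183 wide places, log2 fold in the replicates gave a Pearson r of 0.75 and a Spearman rho of 0.70, and width gave 0.65 and 0.61. Across the 125 narrow places the values were 0.58 and 0.41 for log2 fold and 0.29 and 0.41 for width. These correlations are across regions of the same lists and carry no p-value, and the narrow set spans a smaller range by its choice.

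Summit positions were close in both sets. Summits of the replicates lay a median of 30 bp apart at wide places and 33 bp at narrow places, and 172 of 183 wide and 118 of 125 narrow places had summits within 100 bp. The largest distance was 338 bp at wide and 116 bp at narrow places. No wide region overlapped more than 1 region of replicate 1.

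**Figure D3:**
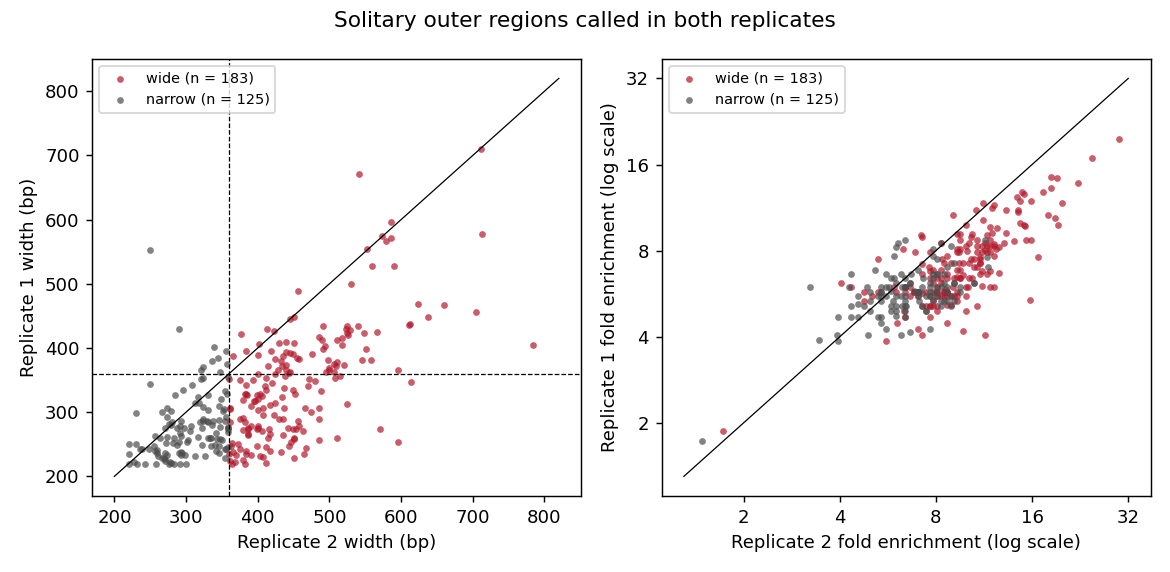
Each point is a solitary outer region called in both replicates, with replicate 2 on the x axes and replicate 1 on the y axes, for width in bp (left; dashed lines at 360 bp) and fold enrichment on log axes (right); the line marks equal values. Of the 183 wide regions, 77 lie above the dashed horizontal line, against 10 of the 125 narrow ones, and most wide regions lie under the line of equal width.

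A minority of wide regions were weak in spite of their width. In the weaker 2 of the 4 strength classes there were 37, with a median width of 417 bp (361 to 787 bp) and a median fold of 5.05 in replicate 2. The 200 in the stronger 2 classes had a median width of 433.5 bp and a median fold of 9.47. The summit lay between 25 and 75% of the region's length in 30 of the 37 weak regions (81.1%, 64.8 to 92.0%), against 199 of the 200 stronger ones (99.5%, 97.2 to 100%). Over all narrow regions the count was 501 of 524 (95.6%). All of these are values of replicate 2, which chose the set.

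Only 2 wide solitary outer regions stood on a local background over 2 times the lowest of the list, and replicate 1 called both. Chr chromosome 12, 39187521 to 39188061, had a fold of 1.72 from 192 summit fragments in replicate 2 (95% Poisson interval 166 to 221), over 28.9 times the lowest background. In replicate 1 its fold was 1.87 from 181 fragments, and it was 671 bp wide against 541 bp in replicate 2. Chr chromosome 14, 4339589 to 4339996, had a fold of 4.05 from 35 fragments in replicate 2 and 6.18 from 28 in replicate 1. In 3 wide regions the replicate 1 list held another region within 30 kb, so that the place was solitary in replicate 2 alone.

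Wide solitary outer regions were present on 20 of 20 chromosomes and at both ends. The number ran from 8 on chromosomes 3, 6, 7, 15 and 16 to 19 on chromosome 17, with a median of 11. Their share among the solitary outer regions of a chromosome ran from 17.8% on chromosome 6 to 47.1% on chromosome 12. Some chromosomes were uneven, with 1 at the start and 10 at the end of chromosome 13, and 7 and 1 on chromosome 6. In all, 106 of 237 lay at the start end (44.7%, 38.3 to 51.3%), against 254 of 524 narrow regions (48.5%, 44.1 to 52.8%). By distance from the nearer end, 33.8% of the wide regions lay within 5% of the chromosome length, 24.1% from 5 to 10%, 22.4% from 10 to 15% and 19.8% from 15 to 20%. The narrow regions had 29.8, 30.3, 20.2 and 19.7%, so the wide share was the higher in the class nearest the end and the lower in the next. Chromosome length was taken as the last called position, so regions at the far end mark that end themselves. Several wide regions were of this kind, among them Chr chromosome 11, 34414240 to 34415023. Such regions fall in the class nearest the end, and their part in the difference from the narrow regions there was not tested. The 3 nearest an end were also of this kind. Chr chromosome 20, 46615325 to 46615782, had folds of 15.7 in replicate 2 and 5.37 in replicate 1. Chr chromosome 1, 56569245 to 56569624, had 8.53 and 5.87, and Chr chromosome 17, 41183117 to 41183498, had 7.03 in replicate 2 and no call in replicate 1.

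The share of wide regions called in replicate 1 had overlapping intervals along the outer parts. Replicate 1 called 60 of 80 within 5% of the end (64.1 to 84.01%), 73.7% from 5 to 10% (42 of 57), 81.1% from 10 to 15% (43 of 53) and 80.9% from 15 to 20% (38 of 47, 66.7 to 90.9%). The narrow regions had 20.5, 25.2, 21.7 and 29.1% in the same order.

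**Figure D4:**
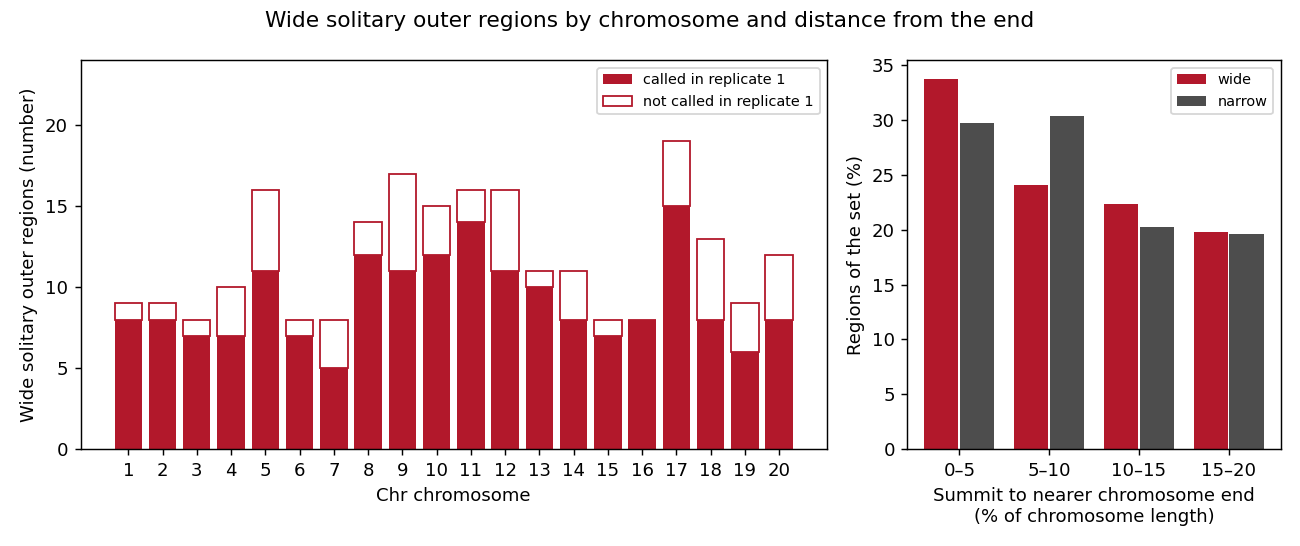
Left, the number of wide solitary outer regions on each Chr chromosome, with those called in replicate 1 filled and the others open. Right, the percentage of the wide and narrow sets in each class of distance from the summit to the nearer chromosome end, as a percentage of chromosome length. Chromosome 17 held the most wide regions (19). The class nearest the end held 33.8% of wide and 29.8% of narrow regions, and the next class 24.1% of wide and 30.3% of narrow regions.

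Distance to the next region overlapped widely between the sets. The next summit of replicate 2 lay a median of 153 kb away from wide regions and 142 kb from narrow ones, with quartiles of 83.2 and 321 kb for wide and 68.2 and 284 kb for narrow regions. The most isolated wide region, Chr chromosome 13, 2558705 to 2559128, had no other replicate 2 summit under that Chr name within 4800 kb. Its fold was 7.80 in replicate 2 and 6.82 in replicate 1. Chr chromosome 1, 46031593 to 46032035, was 1244 kb from the next summit, with folds of 15.1 in replicate 2 and 9.87 in replicate 1. Chr chromosome 15, 44756125 to 44756537, was 1070 kb away, with 9.30 and 6.46.

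Wide regions elsewhere were called in replicate 1 at shares close to this one. Among the 117 wide solitary regions outside the outer parts, replicate 1 called 96 (82.1%, 73.9 to 88.5%), and among the 103 wide outer regions with a neighbour within 30 kb it called 82 (79.6%, 70.5 to 86.9%). Both intervals hold the 77.2% of the wide solitary outer regions. Median fold in replicate 2 was 9.10 in each of these sets, against 8.69. Among those called, 35 of 96 and 37 of 82 were at least 360 bp wide in replicate 1. A link to a Gm name, described next, was found for 22.2% of the first set (15.1 to 30.8%) and 66.02% of the second (56.03 to 75.1%).

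Many wide solitary outer regions had a counterpart under the second set of names. The lists also hold 20 chromosomes with the prefix Gm, and a region was linked to a Gm region of equal chromosome number where runs of regions kept their spacing. Links were found for 115 of the 237 wide regions (48.5%, 42.0 to 55.1%) and 130 of the 524 narrow ones (24.8%, 21.2 to 28.7%), with 29.2% over all Chr regions. The linking rule needs a call under both names and a run of at least 8 regions with gaps up to 2 Mb. The shares can therefore depend on strength and on how densely regions lie, and neither part was tested. Replicate 2 called the Gm region in 113 of the 115. There the summit held more fragments under the Chr name in 99 of 113 (87.6%, 80.1 to 93.1%), with medians of 45 under the Chr and 36 under the Gm name. The linked narrow regions had more under the Chr name in 85 of 129, with 5 equal and medians of 30 and 27. Here too the Chr value is the one that was selected for width.

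Looking under either name added few calls in replicate 1. Of the 115 linked wide regions, 54 had a replicate 1 call under each name, 37 only under Chr, 5 only under Gm and 19 under neither. Chr chromosome 18, 304141 to 304518, is 1 of the 5. Its Gm region, 304174 to 304393 on chromosome 18, had a fold of 5.11 from 23 summit fragments in replicate 1. Under either name replicate 1 called 188 wide regions (79.3%, 73.6 to 84.3%) and 129 narrow ones (24.6%, 20.99 to 28.5%), with 43.2% over all Chr regions.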

How the data were processed

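ChIP-seq was performed on 2 biological replicates, and 1 peak list was used for each. Bowtie 0.12.7 and MACS2 are the tools in the submitters' processing notes. Settings and the genome build are not stated in any source used here. The deposited lists have no header and the narrowPeak layout. The authors' fold enrichment is a ratio of ChIP to local background at the summit, with 1 added to each. The deposited p-value and q-value of each region are on the −log10 scale. Fold, p-value and q-value rest on the same summit count and background, so they are not separate measures of strength. The deposited score, −log10 q times 10 without decimals, was not used.

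Whole fragment counts at the summit were recovered by solving the MACS2 formulas for fold and Poisson p-value; 100% of the rows met the deposited −log10 p within 0.001. Total reads per library are unknown, so the depth behind a region is its summit count. The lowest background was 3.69 fragments in replicate 1 and 3.84 in replicate 2, and the fewest summit fragments were 17 and 16. Positions are printed from 1.

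Shares carry exact (Clopper-Pearson) 95% intervals and summit counts exact Poisson intervals, for counting error only. Intervals of medians are taken from the ranked values of the regions and treat regions as units. Intervals of differences combine the limits of both values. The classes by −log10 q have limits of 8.43, 12.5 and 20.8. Links to Gm names are chains of at least 8 regions with gaps up to 2 Mb and spacing kept within 500 bp plus 1%, a rule earlier chosen on these lists, with 433 links in all.

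The named regions are the 6 widest, the 6 with the highest fold in each list, the 4 strongest not called in replicate 1, the 3 nearest an end, the 3 most isolated, those at the width limit, the 3 strongest narrow ones and those on a high background. The members, sets and comparisons were chosen with earlier results of these data known. No test was run. Scripts used Python 3.11.15, numpy, pandas and scipy 1.17.1, and were checked on made-up rows with known answers.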

Additional observations from a re-analysis of the deposited data

How the results depend on the processing

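The number of wide solitary outer regions, 237 as reported, was 410 with a width limit of 300 bp and 137 with the outer 10% at each end. It was 237 with lengths from replicate 2 alone and 101 with the rule on replicate 1 alone. The share called in replicate 1 was 60.5% of wide and 17.1% of narrow regions at 300 bp, 84.2 and 28.4% at 400 bp, and 61.6 and 10.05% with the rule on Gm names. At 300 bp the difference in share was 43.4 points and its mean over strength classes 27.5 points. With the lists exchanged, so that replicate 1 chose the regions and replicate 2 was searched, 101 regions were wide. Replicate 2 called 98.02% of these and 93.5% of the narrow ones, a difference of 4.54 points, and the mean difference over strength classes was −1.13 points (−14.0 to 5.71). Median width and fold in replicate 2 were then higher at wide places by 133.5 bp and 3.22. Nearly all regions of both sets were called there, which leaves no room for a gap like the reported one. The other alternatives (distance to the next summit, outer 30%, summits of both lists, −log10 q of at least 5, high background left out, reciprocal overlap of 50%, summits within 100 bp) moved counts by less than 1.5 times and left other values inside the reported intervals. So did the added ones, chosen after the data were seen: calls under either name, 8 classes (16.5 points), classes of fragments (14.9) and classes of fold (19.9). No paired analysis was possible because all samples form 1 group. Few fragments per summit limit the lists, so a region without a call in replicate 1 is not shown to be unbound there.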
